A study of Rattus norvegicus with 10 samples.

Results

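A set of 10 G protein-coupled receptors (GPCRs) of the oligodendrocyte lineage were followed across RNAseq libraries of primary rat cells: Gpr17, Gpr37, the sphingosine-1-phosphate (S1P) receptors S1pr1, S1pr2, S1pr3 and S1pr5, the lysophosphatidic acid (LPA) receptor Lpar1, the adhesion receptor Adgrg1, the muscarinic receptor Chrm1 and the kappa opioid receptor Oprk1. They were chosen by gene symbol, as given in the authors' gene table, and 9 of the 10 had a row among the 23487 genes of the deposited counts. Oprk1 was not listed there, so no value is given for it. The cells came from cortices of Sprague-Dawley rat pups of postnatal day 1 to 3, grown as mixed glial cultures from which oligodendrocyte progenitor cells (OPCs) were shaken off. All 5 groups were transfected with small RNAs at 30 nM, and each group held 2 libraries. OPC anti-miR-145 received an inhibitor of miR-145 and OPC anti-miR-ctl its scrambled control, both assayed 24 h after transfection. OL miR-ctl, OL miR-145 and OL miR-145+miR-219 were oligodendrocytes (OLs) given a scrambled control, a mimic of miR-145, or mimics of miR-145 and miR-219 together, and were assayed 5 days after transfection. A label tag of the OL miR-145 libraries names miR-219 as well, whereas the titles name only miR-145, and the titles were followed. The methods paragraph on sequencing describes lentiviral delivery instead of transfection. The study's results text describes mimics of miR-145-5p for the sequencing, as the labels do, and there too the labels were followed. The study's reporting notes count every N as a biological replicate, which for primary cultures they describe for mice and not for rats. The labels do not say whether the 2 libraries of a group came from separate cultures, so the p-values measure only the spread between these libraries.

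GPCRs sit in the plasma membrane and pass the binding of an extracellular ligand to G proteins, which raise or lower cyclic AMP or activate phospholipase C, among other effects. In the OL lineage these receptors read lipids, peptides and matrix proteins, and they are known for setting when a progenitor stops dividing and begins to make myelin. Gpr17 marks committed, premyelinating cells and must fall again before myelin forms, Gpr37 appears in maturing OLs and restrains their differentiation, and S1pr5 and Lpar1 are typical receptors of maturing OLs. S1pr1 and S1pr3 are also known from astrocytes, and S1pr2 acts mainly through G12/13 proteins. Adgrg1, also called GPR56, keeps OPCs in division, while blocking Chrm1 or activating Oprk1 favours their differentiation.

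The mature microRNAs behind the transfected mimics are shown because their seeds, bases 2 to 8, set which transcripts they pair with. The sequences are from RefSeq (GRCr8), 5′ to 3′, with the seed in capitals:
rno-miR-145-5p: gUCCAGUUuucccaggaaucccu
rno-miR-219a-5p: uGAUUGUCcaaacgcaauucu
The seeds differ. The labels do not state which arm or family member of miR-219 was used, and the 5p arm of miR-219a is shown as the form best known in OLs.

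Library totals ran from 33505706 to 42684206 counts, and levels are given as CPM, counts scaled to a common library size after normalization by the trimmed mean of M values (TMM) over the 10 libraries. CPM is not divided by gene length, so levels are compared between libraries and not between genes. The labelled stages were checked with marker lists. The summed level of 10 maturing OL markers was 16110 to 35460 CPM in OL libraries and 1121 to 1326 CPM in OPC libraries. That of 6 OPC markers was 1202 to 1903 CPM in OL and 3731 to 4783 CPM in OPC libraries. Of these 6, 5 were lower in control OLs than in control OPCs and C1ql1 was higher. C1ql1 was at 70.8 to 102.6 CPM in OL libraries and at 53.4 to 61.7 CPM in OPC libraries. The summed level of 10 astrocyte markers was 5494 to 13510 CPM in OL libraries and 485 to 683.9 CPM in OPC libraries, and that of 10 microglia markers was 319.7 to 898.6 CPM in OL and 842 to 1037 CPM in OPC libraries. Gfap, the defining astrocyte marker, was at 4173 to 9676 CPM in OL libraries and at 7.80 to 51.8 CPM in OPC libraries, so astrocyte RNA was present beside that of OLs. In such bulk RNA, fewer cells of a type and less RNA per cell cannot be told apart. Replicates of every group differed by more than counting error, and 2 libraries against 2 cannot give an exact permutation p below 0.333, so the tests were edgeR quasi-likelihood fits over all genes.

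**Figure D1:**
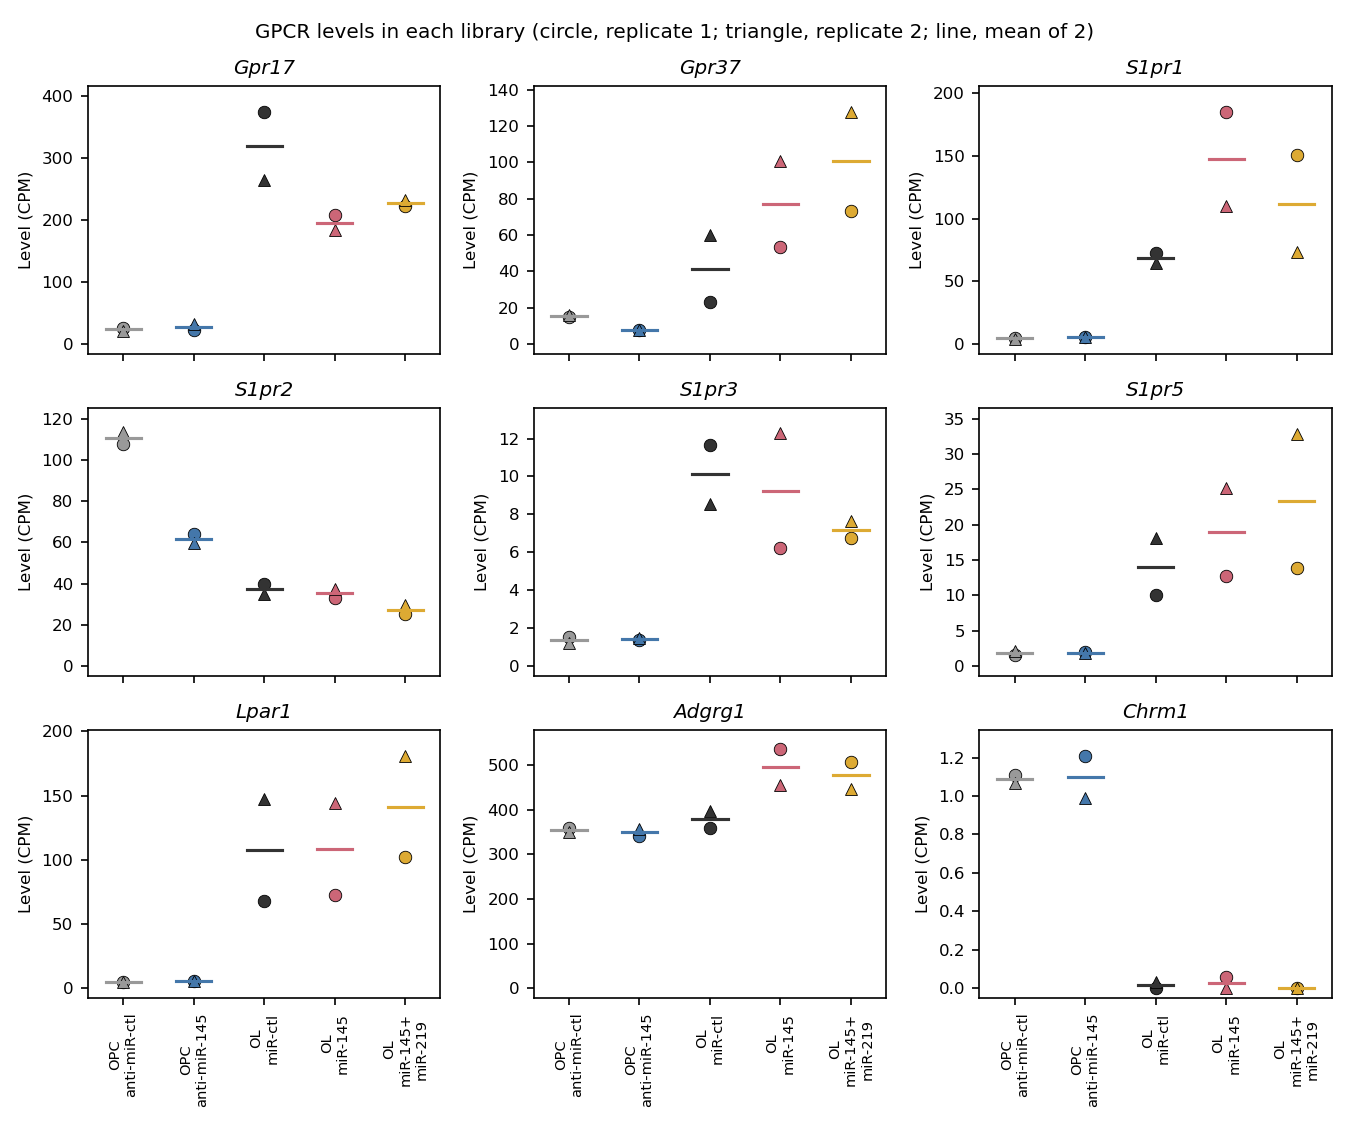
Level of each of the 9 GPCR genes with a row (CPM, linear axis, a separate scale for each gene) in the 5 groups, with a circle for replicate 1, a triangle for replicate 2 and a line at the mean of 2. Gpr17, Gpr37, S1pr1, S1pr3, S1pr5 and Lpar1 lie higher in all OL groups than in both OPC groups, S1pr2 and Chrm1 lie lower, and the OL libraries of Gpr37, S1pr5 and Lpar1 spread widely within each group.

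The comparison of control OLs with control OPCs asks how the receptors differ between the stages. Of the 9 receptors tested, 6 rose, 2 fell and 1 did not pass edgeR's test, while 57.5% of all genes tested were called, 28.8% higher and 28.7% lower. The median log2 fold change (log2FC) of the receptors was 2.86, beside 0.00721 over all genes. Stage, control oligonucleotide and time after transfection differ together here and cannot be told apart. The groups did not overlap for 8 of the 9 receptors and for 81.8% of all genes.

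Among the lipid receptors, Lpar1 (ENSRNOG00000013656) and S1pr1 both rose in that comparison. The level of Lpar1 was 4.89 and 5.17 CPM in the OPC anti-miR-ctl libraries and 68.1 and 147 CPM in the OL miR-ctl libraries. It rose 21.2-fold (log2FC 4.40, SE 0.42, edgeR adjusted p = 0.000772). The OL libraries themselves differed 2.16-fold, and the log2FC was 3.76 without OL miR-ctl replicate 2 and 4.87 without replicate 1. S1pr1 (ENSRNOG00000013683), the widely expressed Gi-coupled S1P receptor, was at 4.59 and 4.38 CPM in control OPCs and at 72.9 and 64.8 CPM in control OLs. That was a 15.2-fold rise (log2FC 3.93, SE 0.11, edgeR adjusted p = 4.39e-05), with replicates close together at both stages. Astrocyte markers rose between the stages as well, 9 of 10 called, and their part in the rise of S1pr1 and S1pr3 was not tested.

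S1pr5 (ENSRNOG00000020901), the S1P receptor typical of OLs, was low in OPCs, at 1.64 and 2.16 CPM, and reached 10.0 and 18.1 CPM in control OLs (7.33-fold higher, log2FC 2.87, SE 0.35, edgeR adjusted p = 0.00175). S1pr3 (ENSRNOG00000014524) moved by a similar factor, from 1.52 and 1.23 CPM to 11.7 and 8.55 CPM (7.25-fold, log2FC 2.86, SE 0.24, edgeR adjusted p = 0.000514). S1pr2 (ENSRNOG00000020653) went the other way. It was at 108 and 114 CPM in control OPCs and at 40.1 and 34.95 CPM in control OLs, 2.98-fold lower (log2FC -1.57, SE 0.10, edgeR adjusted p = 0.000199). The 4 S1P receptors with a row thus did not share a direction, as 3 rose and S1pr2 fell, and none of their groups overlapped.

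Gpr17 (ENSRNOG00000025745), the receptor of premyelinating cells, was at 25.8 and 21.4 CPM in control OPCs. Its level was 375 and 265 CPM in control OLs, a 13.4-fold rise (log2FC 3.74, SE 0.21, edgeR adjusted p = 0.000155). Gpr37 (ENSRNOG00000002524) rose less, from 14.7 and 16.1 CPM to 22.9 and 60.0 CPM (2.66-fold, log2FC 1.41, SE 0.45, edgeR adjusted p = 0.0429). This call was lost without either OPC control library (adjusted p = 0.183 without replicate 1 and 0.156 without replicate 2), and the log2FC fell to 0.57 without OL miR-ctl replicate 2. The OL libraries of Gpr37 differed 2.62-fold.

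Adgrg1 (ENSRNOG00000014963) was at 360.2 and 350.9 CPM in control OPCs and at 359.7 and 398 CPM in control OLs. These levels overlapped (log2FC 0.08, SE 0.09, edgeR adjusted p = 0.476), although the gene was called at a log2FC of 0.16 without OL miR-ctl replicate 1 (adjusted p = 0.0475). Chrm1 (ENSRNOG00000018385) was close to the limit of detection in OLs. The 6 OL libraries held 3 counts of it in all, with 0 in 4 libraries, whereas each OPC library held 39 to 48. The control groups held 87 counts in OPCs and 1 in OLs, which gives a level 78.9-fold higher in OPCs, with a 95% counting interval of 13.8 to 3150 (exact binomial, counting error only). Chrm1 fell in the edgeR fit (adjusted p = 0.00165), and it was not tested where an OPC control library was left out.

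**Figure D2:**
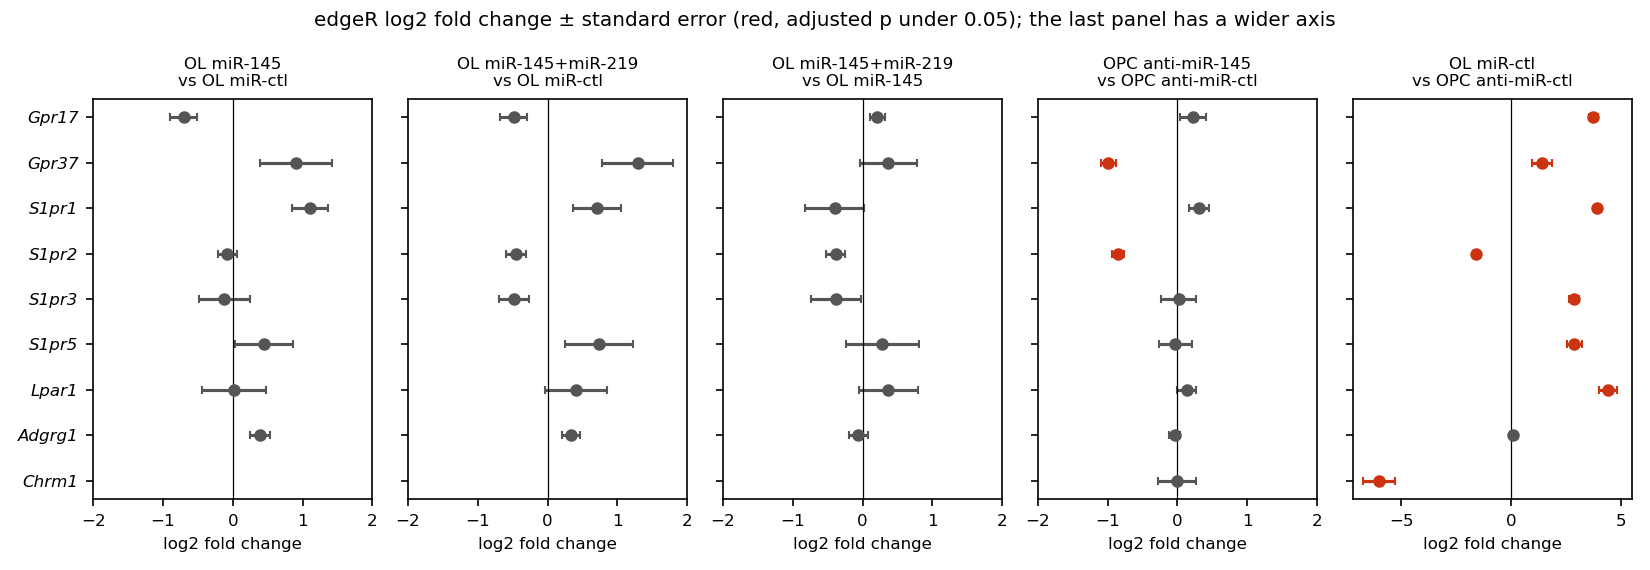
edgeR log2 fold change of each receptor (points, with bars of 1 standard error) in the 5 comparisons, in red where the adjusted p was under 0.05, with a wider axis in the last panel. No receptor was called in the 3 comparisons among OL groups, Gpr37 and S1pr2 were called lower with the miR-145 inhibitor in OPCs, and 8 receptors were called between control OLs and control OPCs, where the fitted value of Chrm1 depends on the prior count.

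The genes around these receptors were described from lists of related receptors, ligand supply and signalling proteins, of which 83 genes of 97 had a row. The S1P supply list holds genes that make or move S1P and genes that break it down, such as Sgpl1. In the same comparison of stages, 7 of 9 genes of this list rose and 0 fell, with a median log2FC of 1.29. A count over such a list does not give the direction of supply itself. Sphk1, the kinase that makes S1P, rose from a mean of 1.19 to 18.4 CPM (log2FC 3.93, SE 0.20, edgeR adjusted p = 0.000114). Spns2, which exports S1P from cells, rose from 4.72 to 29.2 CPM (log2FC 2.62, SE 0.14, edgeR adjusted p = 0.000133). Of the 5 genes of LPA supply, 3 rose and 1 fell. They included Enpp2, the secreted enzyme autotaxin that makes LPA, at a log2FC of 1.71 (SE 0.34, edgeR adjusted p = 0.00903), and Plpp2, a phosphatase that breaks lipid phosphates down, at 2.27 (SE 0.22). Agk, an acylglycerol kinase, fell by 0.36 (SE 0.10).

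Related receptors mostly went down between the stages: 2 of 14 rose and 8 fell (median log2FC -1.59). Chrm3, another muscarinic receptor, fell from a mean of 70.8 to 2.49 CPM (log2FC -4.82, SE 0.22, edgeR adjusted p = 8.94e-05), beside the near absence of Chrm1 counts in OLs. Adgrg6, an adhesion receptor of the same family as Adgrg1, fell from 191 to 25.4 CPM (log2FC -2.92, SE 0.09, edgeR adjusted p = 4.69e-05). Gpr37l1, the closest relative of Gpr37, rose by a log2FC of 1.40 (SE 0.09), and so did P2ry1, a receptor for ADP, by 2.26 (SE 0.17). Gpr37l1 is known chiefly from astrocytes, whose markers were also higher in the OL libraries, with 9 of 10 called. The mean of Gpr37l1 was 221 CPM in control OPCs, where Gfap was at 8.13 and 7.80 CPM, and 591 CPM in control OLs. The part of astrocytes in the rise of Gpr37l1 was not tested.

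Proposed ligands of the remaining receptors split, with 2 of 5 genes called higher and 1 lower. Psap, whose product prosaposin is a proposed ligand of Gpr37, rose by 0.42 (SE 0.09), and Tgm2, the Adgrg1 ligand transglutaminase 2, rose by 1.08 (SE 0.30). Alox5, which starts leukotriene synthesis, fell by 0.95 (SE 0.27). G protein alpha subunits were called in equal numbers, 3 of 10 each way, with Gna12, a subunit of the G12/13 class, at 0.99 (SE 0.10), the neural subunit Gnao1 at 0.91 (SE 0.08), the inhibitory subunit Gnai2 at -0.63 (SE 0.08) and Gnaz at -1.50 (SE 0.19).

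Of the 20 genes that switch receptor signals off, 5 rose and 10 fell. The G protein regulators Rgs4 and Rgs16 rose by 4.64 (SE 0.58) and 2.52 (SE 0.36), and Arrb2, which encodes an arrestin, and Rgs19 fell by 1.94 (SE 0.13) and 1.37 (SE 0.10). Effector enzymes gave 4 genes higher and 7 lower of 19. Arhgef12, an exchange factor downstream of G12/13, and the phospholipase gene Plcb1 rose by 0.60 (SE 0.07) and 1.10 (SE 0.14), while the adenylyl cyclase genes Adcy3 and Adcy8 fell by 2.58 (SE 0.20) and 4.32 (SE 0.35).

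The inhibitor of miR-145 in OPCs asks what lowering the microRNA does at the progenitor stage. Gpr37 and S1pr2 fell and 0 receptors rose, so 2 of 9 were called, the same 2 as at an unadjusted p under 0.05 and with DESeq2, while 28.1% of all genes were called, 12.1% higher and 16% lower. The groups of 4 receptors did not overlap, beside 68.6% of all genes. The median log2FC of the receptors was -0.00239 and that of all genes 0.00451.

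Gpr37 was at 14.7 and 16.1 CPM with anti-miR-ctl. With anti-miR-145 it was at 7.79 and 7.84 CPM, 1.99-fold lower (log2FC -0.99, SE 0.11, edgeR adjusted p = 0.000867). The replicates of each group lay close together and the groups were well separated. Maturing OL markers, which include genes that rise with Gpr37, gave 2 called higher and 2 lower of 10 in this comparison. Of these 10 markers 7 had a negative log2FC and 3 a positive one, with a median of -0.19. Their part in the fall of Gpr37 was not tested. The call was lost when all 5 groups shared a single estimate of spread (log2FC -0.98, SE 0.48, adjusted p = 0.209), in which the wide OL replicates of this gene enter. S1pr2 was at 108 and 114 CPM with anti-miR-ctl and at 64.2 and 59.5 CPM with anti-miR-145, 1.81-fold lower (log2FC -0.85, SE 0.09, edgeR adjusted p = 0.000622).

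The other S1P receptors and Lpar1 did not pass the test in OPCs. S1pr1 was slightly higher with the inhibitor, at 5.40 and 5.80 CPM against 4.59 and 4.38 CPM, and its groups did not overlap (log2FC 0.31, SE 0.14, edgeR adjusted p = 0.157). Lpar1 was at 5.48 and 5.66 CPM against 4.89 and 5.17 CPM (log2FC 0.13, SE 0.14, edgeR adjusted p = 0.518). S1pr3 and S1pr5 overlapped between the groups, with a log2FC of 0.02 (SE 0.25) and -0.03 (SE 0.24). At 45 to 79 counts a library, their depth limits these estimates.

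Gpr17 was at 22.5 and 33.1 CPM with anti-miR-145 and at 25.8 and 21.4 CPM with anti-miR-ctl (log2FC 0.22, SE 0.18, edgeR adjusted p = 0.403). Its anti-miR-145 libraries differed 1.47-fold, with a control library between them. Without anti-miR-145 replicate 1 the gene was called higher (log2FC 0.46, adjusted p = 0.00813), and without replicate 2 the log2FC was -0.07. Adgrg1, at 341 and 358 CPM against 360.2 and 350.9 CPM, gave a log2FC of -0.04 (SE 0.08). Chrm1 held 48 and 43 counts with the inhibitor and 48 and 39 with its control (SE of the log2FC 0.27).

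Genes around the receptors were called in both directions with the inhibitor. Related receptors gave 3 higher and 7 lower of 13 (median log2FC -0.54). P2ry2, a nucleotide receptor, fell from a mean of 3.96 to 0.590 CPM (log2FC -2.75, SE 0.23, edgeR adjusted p = 0.000247), and Lpar3, another LPA receptor, fell from 13.1 to 3.34 CPM (log2FC -1.99, SE 0.18, edgeR adjusted p = 0.000334). Chrm3 rose from 70.8 to 155 CPM (log2FC 1.11, SE 0.08, edgeR adjusted p = 0.000135), and P2ry1 rose by a log2FC of 1.54 (SE 0.14). Lpar1 and Chrm1, of the same receptor families as Lpar3 and Chrm3, did not pass the test in this comparison.

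S1P supply gave 4 genes higher and 1 lower of 9. Sphk1 rose from 1.19 to 3.05 CPM (log2FC 1.34, SE 0.23, edgeR adjusted p = 0.0062), and Mfsd2a, a lipid transporter, rose by 1.21 (SE 0.11). Sgpl1, the lyase that degrades S1P, fell by 0.32 (SE 0.08). In LPA supply edgeR called 0 of 5 genes, with 1 at an unadjusted p under 0.05, and DESeq2 called 0.

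Ligand genes of the other receptors gave 2 higher and 1 lower of 6. Ltc4s, the synthase of cysteinyl leukotrienes, held 76 counts with the inhibitor and 2 with its control, 36.4-fold higher with a 95% counting interval of 9.75 to 306 (exact binomial, counting error only), and was called higher (edgeR adjusted p = 0.00194). Alox5ap, which serves leukotriene synthesis, rose by 1.47 (SE 0.22), and Tgm2 fell by 1.86 (SE 0.49). Both leukotriene genes are also known from microglia and other myeloid cells, whose 10 markers gave 5 called higher and 4 lower in this comparison. The part of such cells was not tested.

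G protein alpha subunits gave 2 higher and 2 lower of 10, led by Gnaz at 1.32 (SE 0.08), with Gna11 at 0.36 (SE 0.08), Gnai2 at -0.30 (SE 0.09) and Gnao1 at -0.30 (SE 0.09). Among 20 genes that switch signals off, 5 rose and 6 fell, including Rgs2 (1.19, SE 0.10) and Rgs16 (1.05, SE 0.13) on one side and the receptor kinase Grk3 (-1.69, SE 0.15) and the arrestin gene Arrb1 (-0.91, SE 0.13) on the other. Effectors gave 3 each way of 19, with Plcb1 at 1.34 (SE 0.11), Adcy4 at 0.87 (SE 0.20), Adcy7 at -1.15 (SE 0.14) and the kinase gene Rock2 at -0.42 (SE 0.11). Both comparisons of this kind share the OPC anti-miR-ctl libraries, so likeness between them is not read as a result.

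**Figure D3:**
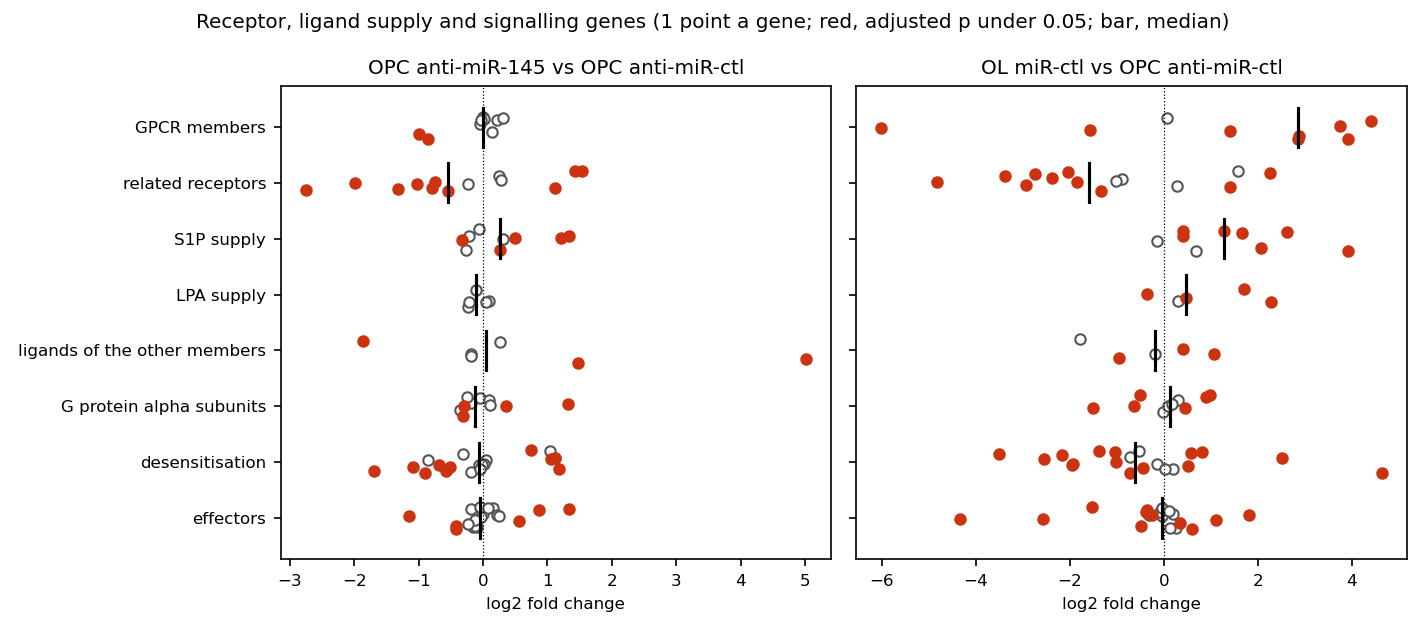
edgeR log2 fold change of every tested gene of the receptor, ligand supply and signalling lists (1 point a gene, red where the adjusted p was under 0.05, bar at the median of the list), with the miR-145 inhibitor in OPCs on the left and between control stages on the right. Between the stages 7 of 9 genes of S1P supply are called higher and 8 of 14 related receptors lower.

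In OLs the mimic of miR-145 was compared with the scrambled control. edgeR called 0 of the 8 receptors tested, as it called 0% of all 15461 genes. At an unadjusted p under 0.05 there were 3 receptors, S1pr1, Gpr17 and Adgrg1, beside 13.4% of all genes, and DESeq2 called 2 of them, Gpr17 and S1pr1, beside 4.37% of all genes. The groups of 3 receptors did not overlap, beside 47.3% of all genes, and the median log2FC was 0.21 for the receptors and -0.01 for all genes.

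S1pr1 was at 185 and 109.95 CPM with miR-145 and at 72.9 and 64.8 CPM with miR-ctl, so both mimic libraries lay above both controls (log2FC 1.10, SE 0.26, edgeR adjusted p = 0.192, DESeq2 adjusted p = 0.00351). Gpr17 was at 208 and 183 CPM against 375 and 265 CPM, lower in both mimic libraries (log2FC -0.70, SE 0.19, edgeR adjusted p = 0.235, DESeq2 adjusted p = 0.0406). Its size rested in part on OL miR-ctl replicate 1, without which the log2FC was -0.43. Adgrg1 was at 536 and 455 CPM against 359.7 and 398 CPM, above both controls by a smaller factor (log2FC 0.39, SE 0.14, edgeR adjusted p = 0.34, DESeq2 adjusted p = 0.206).

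Gpr37 was at 53.4 and 101 CPM with miR-145 and at 22.9 and 60.0 CPM with miR-ctl. The mean difference was 1.87-fold, but the lower mimic library lay below the higher control (log2FC 0.91, SE 0.51, edgeR adjusted p = 0.49). The log2FC was 0.37 without OL miR-145 replicate 2, 0.38 without OL miR-ctl replicate 1 and 1.75 without OL miR-ctl replicate 2. Lpar1, at 72.9 and 144 CPM against 68.1 and 147 CPM, gave a log2FC of 0.02 with an SE of 0.46, so that its replicates differed far more than its groups. S1pr5 was at 12.8 and 25.2 CPM against 10.0 and 18.1 CPM (log2FC 0.44, SE 0.41), and its groups overlapped. S1pr2 and S1pr3 gave -0.08 (SE 0.13) and -0.12 (SE 0.36). Chrm1 was too low in OLs to be tested.

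Marker levels moved with several of these genes. The summed astrocyte markers were at 13510 and 9201 CPM with miR-145 and at 6549 and 5494 CPM with miR-ctl, and 10 of 10 had a positive log2FC, with 0 called by edgeR, 8 at an unadjusted p under 0.05, 6 called by DESeq2 and a median of 0.88. Across the 6 OL libraries S1pr1 had the same order as that sum, from OL miR-ctl replicate 2 at the bottom to OL miR-145 replicate 1 at the top. The largest part of the sum was Gfap, at 9676 and 6713 CPM with miR-145 and at 4795 and 4173 CPM with miR-ctl. OL miR-145+miR-219 replicate 2 and OL miR-ctl replicate 1 nearly tied, at sums of 6601 and 6549 CPM and S1pr1 levels of 73.1 and 72.9 CPM. Other astrocyte markers went both ways in this pair, such as Slc1a3 (365 and 490 CPM) and Gja1 (258 and 159 CPM). The summed maturing OL markers were at 16110 and 25840 CPM with miR-145 and at 17600 and 32420 CPM with miR-ctl. In each OL group the replicate with the higher sum also had the higher level of Lpar1, S1pr5 and Gpr37. The 10 microglia markers also had a positive log2FC throughout with miR-145 (median 0.60, 0 called by edgeR, 1 at an unadjusted p under 0.05 and 1 called by DESeq2), and their sum was 341.4 and 898.6 CPM against 361.5 and 543.2 CPM. Of the fibroblast or mural markers 6 could be tested, of which 5 had a positive log2FC with miR-145. The median of the 6 was 0.96, with 0 called by edgeR, 5 at an unadjusted p under 0.05 and 1 called by DESeq2. The sum of this list was 97.6 and 100.0 CPM with miR-145 against 123 and 76.4 CPM with miR-ctl. Its largest part was Cspg4, which is also on the OPC list and was the member with a negative log2FC. Cspg4 was at 50.0 and 44.35 CPM with miR-145 and at 92.7 and 56.1 CPM with miR-ctl, so the sum does not follow the other markers. With both mimics 4 of 5 tested markers of this list were positive, with a median of 0.79. Of these 5, 0 were called by edgeR, 3 had an unadjusted p under 0.05 and 0 were called by DESeq2. The part of these cells in the receptor differences was not tested.

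**Figure D4:**
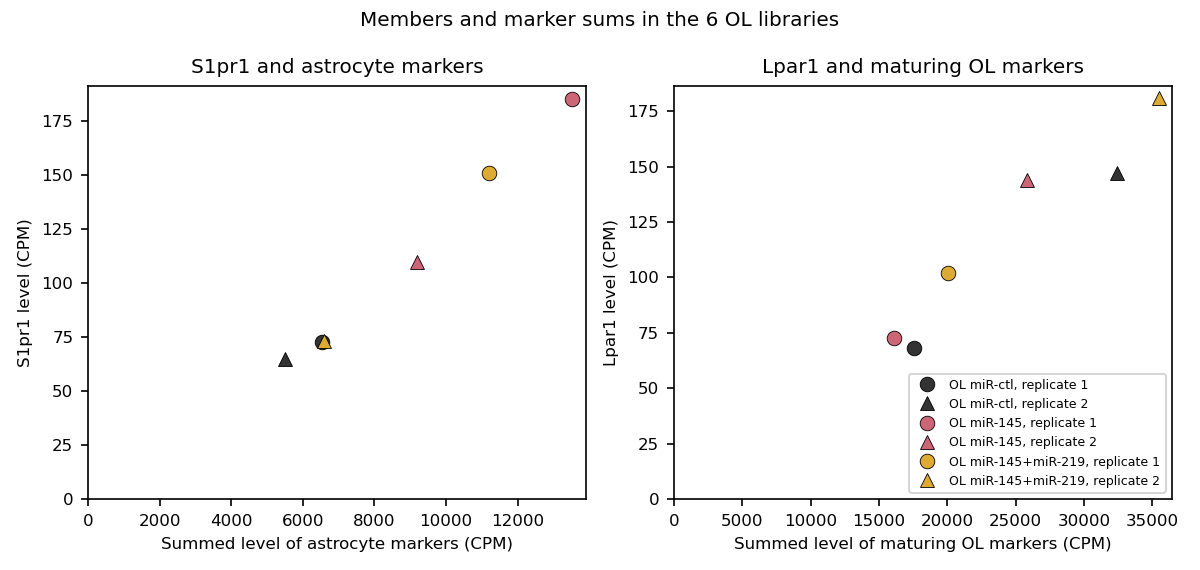
Level of S1pr1 against the summed astrocyte markers (left) and of Lpar1 against the summed maturing OL markers (right), all in CPM, in the 6 OL libraries (circle, replicate 1; triangle, replicate 2; one colour a group). S1pr1 is highest at 185 CPM in the library with the highest astrocyte sum, 13510 CPM, and Lpar1 is highest at 181 CPM in the library with the highest maturing OL sum, 35460 CPM.

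With both mimics, the 8 receptors were compared with the same OL miR-ctl libraries. edgeR called 0 of 8, as it called 0% of all genes, and 2 receptors had an unadjusted p under 0.05, S1pr2 and Adgrg1, beside 6.19% of all genes. DESeq2 called 0 of 8 receptors, beside 0.687% of all genes. The groups of 6 receptors did not overlap, beside 36.8% of all genes, and the median log2FC was 0.37 for the receptors and 0.00135 for all genes.

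Gpr37 was at 73.1 and 128 CPM with both mimics, above both controls (log2FC 1.29, SE 0.51, edgeR adjusted p = 0.801). The log2FC was 0.76 without OL miR-ctl replicate 1 and 2.14 without replicate 2. S1pr1 was at 151 and 73.1 CPM, of which the lower library lay just above the controls (log2FC 0.71, SE 0.35, edgeR adjusted p = 0.814), and the log2FC was 0.09 without replicate 1 of the mimic group. Gpr17, at 223 and 232 CPM, was below both controls (log2FC -0.48, SE 0.19, edgeR adjusted p = 0.801). With miR-145 alone these 3 genes had values of 0.91, 1.10 and -0.70 against the same control libraries.

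S1pr2 was at 25.1 and 29.5 CPM with both mimics, below its controls at 40.1 and 34.95 CPM (log2FC -0.45, SE 0.14, edgeR adjusted p = 0.8). S1pr3 was at 6.75 and 7.64 CPM, also below both controls (log2FC -0.49, SE 0.21). Adgrg1, at 507 and 448 CPM, was above both controls (log2FC 0.34, SE 0.13). The groups overlapped for S1pr5, at 13.9 and 32.9 CPM (log2FC 0.74, SE 0.49), and for Lpar1, at 102 and 181 CPM (log2FC 0.40, SE 0.44). The astrocyte marker sum was 11210 and 6601 CPM with both mimics, again higher in the library with the higher S1pr1, and 10 of 10 markers had a positive log2FC (median 0.55, 0 called by edgeR, 4 at an unadjusted p under 0.05 and 2 called by DESeq2).

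The 2 mimic groups were then compared directly. The dose given is 30 nM in both groups, without saying whether it holds for each mimic or for their total. An effect of the added miR-219 and one of a different miR-145 dose can thus not be told apart. edgeR called 0 of 8 receptors and 0% of all genes, 1 receptor, S1pr2, had an unadjusted p under 0.05, beside 1.47% of all genes, and DESeq2 called 0 of 8, beside 0.0581% of all genes. The groups did not overlap for 2 receptors, beside 24.8% of all genes. S1pr2 was lower with both mimics, at 25.1 and 29.5 CPM against 33.2 and 37.7 CPM (log2FC -0.39, SE 0.14, edgeR adjusted p = 1). Gpr17 was higher, at 223 and 232 CPM against 208 and 183 CPM (log2FC 0.21, SE 0.11, edgeR adjusted p = 1). The other 6 receptors overlapped, with log2FC values from -0.40 (SE 0.42) for S1pr1 to 0.37 (SE 0.41) for Gpr37.

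In the lists of related receptors, ligand supply and signalling genes, edgeR called 0 of 83 genes in each of the 3 comparisons among OL groups. With miR-145 against miR-ctl 18 of the 83 had an unadjusted p under 0.05 and DESeq2 called 4, beside 13.4% and 4.37% of all genes. With both mimics against miR-ctl these counts were 10 and 0, beside 6.19% and 0.687% of all genes. For both mimics against miR-145 they were 5 and 0, beside 1.47% and 0.0581%. The list medians with miR-145 against miR-ctl ran from -0.02 for S1P supply to 0.77 for the ligand genes of the other receptors, where 5 of 6 values were positive. Values with both mimics were -0.15 and 0.50 for the same lists. The ligand genes include Col3a1, a fibroblast collagen that is a proposed Adgrg1 ligand, named after its values were seen. The mean of Col3a1 was 16.5 CPM with miR-145 and 0.461 CPM with miR-ctl (log2FC 5.22, SE 1.35, edgeR adjusted p = 0.218). Col1a1, the collagen gene among the fibroblast or mural markers, was at 1.75 CPM in OL miR-145 replicate 1 and at 16.4 CPM in replicate 2. Its controls were at 0.929 and 1.17 CPM. The Col3a1 groups did not overlap, with both miR-145 libraries above both controls. How far the Col3a1 mean rests on OL miR-145 replicate 2 is not shown here. The part of fibroblast or mural cells in the Col3a1 difference was not tested.

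In order of mean level over the 5 groups, S1pr2 ran from OPC anti-miR-ctl (111 ± 4.26 CPM, SD, n = 2) through OPC anti-miR-145 (61.9 ± 3.31), OL miR-ctl (37.5 ± 3.63) and OL miR-145 (35.4 ± 3.12) to OL miR-145+miR-219 (27.3 ± 3.07), and of these neighbours OL miR-ctl and OL miR-145 overlapped. Gpr17 ran from OL miR-ctl (320 ± 78.1 CPM) through OL miR-145+miR-219 (228 ± 6.64) and OL miR-145 (195 ± 17.2), none of which overlapped with its neighbour, to the OPC groups at 27.8 ± 7.49 and 23.6 ± 3.11, which did. For Gpr37, S1pr5 and Lpar1 the group with both mimics had the highest mean (101 ± 38.8, 23.4 ± 13.4 and 141 ± 55.6 CPM), but the 3 OL groups overlapped from neighbour to neighbour. S1pr1 and Adgrg1 had their highest mean with miR-145 (148 ± 53.2 and 496 ± 57.5 CPM), overlapping with the group given both mimics. S1pr3 had its highest mean in OL miR-ctl (10.1 ± 2.21 CPM), and the OL groups again overlapped from neighbour to neighbour.

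For Gpr17, Gpr37, S1pr5 and Lpar1 the genes with the most similar levels were found by the Pearson correlation of log2(CPM + 1) over the 10 libraries, among 10904 genes with a mean of at least 5 CPM. The libraries fall into the stages, which sets most of each value, and the values are a description. Gpr17 was nearest to Glrb, which encodes a glycine receptor subunit, Fa2h, which hydroxylates the fatty acids of myelin lipids, and Zfp516 (r = 0.996 for each at the lowest). Fa2h was at 99.97 and 63.8 CPM in OL miR-ctl and at 61.4 and 52.7 CPM in OL miR-145. Gpr37 was nearest to Mobp, a late myelin gene (r = 0.992), Osbpl1a (r = 0.990) and Jcad (r = 0.989). Mobp, like Gpr37, was lowest among OL libraries in OL miR-ctl replicate 1, at 14.9 CPM, and highest in OL miR-145+miR-219 replicate 2, at 192 CPM. S1pr5 was nearest to Galnt6 (r = 0.996), Aspa, an enzyme of OLs that splits N-acetylaspartate (r = 0.994), and Pcp4l1 (r = 0.993). Lpar1 was nearest to Glul, the glutamine synthetase gene (r = 0.999), Sept4 (r = 0.998) and Mbp, the myelin basic protein gene (r = 0.998).

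Promoters of S1pr1 and S1pr2 are shown because these receptors of the same ligand moved in opposite directions between the stages. Each is 250 bases before to 50 after the RefSeq gene start (GRCr8), 5′ to 3′ on the strand of the gene, with the match to the Sox core in capitals. The window of S1pr1 is chr2:206314021-206314320 and that of S1pr2 is chr8:27790295-27790594, both on the minus strand:
S1pr1: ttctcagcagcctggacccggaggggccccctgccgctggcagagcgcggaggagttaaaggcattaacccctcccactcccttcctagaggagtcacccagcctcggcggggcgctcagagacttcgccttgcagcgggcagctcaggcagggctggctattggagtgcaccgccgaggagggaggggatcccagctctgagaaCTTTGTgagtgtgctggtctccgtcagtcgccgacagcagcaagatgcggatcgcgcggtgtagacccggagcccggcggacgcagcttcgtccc
S1pr2: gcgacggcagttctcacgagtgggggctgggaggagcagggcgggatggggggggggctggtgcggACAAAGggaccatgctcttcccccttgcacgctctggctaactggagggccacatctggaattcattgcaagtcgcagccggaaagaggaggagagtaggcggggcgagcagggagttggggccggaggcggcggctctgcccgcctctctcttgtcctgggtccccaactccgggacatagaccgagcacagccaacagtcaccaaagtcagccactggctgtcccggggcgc
The letters ACAAAG or CTTTGT, the core of Sox motifs and shared with TCF/LEF motifs, were found in the promoters of S1pr1, S1pr2, Adgrg1 and Chrm1, 4 of the 8 receptors with an entry, and in 18.8% of 33469 RefSeq promoters on either strand. In S1pr1 the match starts 45 bases before the gene start and in S1pr2 184 bases before it. The GC box letters GGGCGG were found in S1pr2, S1pr3 and S1pr5 and in 33.1% of all promoters. CTTTGA (TCF/LEF, 16.1% of all), CAGCTG (E-box, 15.1%) and CTGGCAC (MYRF, 4.75%) were found in 0 of the 8, which says only that these letters were not in these windows. Of the receptors with the Sox core, S1pr1 rose, S1pr2 and Chrm1 fell and Adgrg1 did not pass the test between the stages, and Gpr17, Gpr37, S1pr3 and S1pr5, without it, rose.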

How the data were processed

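Primary rat OPCs and OLs in 5 groups of 2 libraries were grouped by their titles. The authors quantified transcripts of the GENCODE annotation of Rnor6.0 with Salmon 0.12.0 (submitters' processing notes), read these into R through tximport, and gave GEO a deposited table of estimated counts, 1 row a gene, without normalization. Their table of a DESeq2 comparison, which also holds fold changes and p-values, was used only for symbols (14561 genes, and 228 more by Entrez ID from RefSeq). Between 16.0% and 17.5% of values in a library were not whole, and counts were rounded.

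Each comparison was fitted on its 4 libraries with edgeR 4.0.16 (TMM, quasi-likelihood) in R 4.3.3, keeping genes that reached 5 counts in 2 or more of them, and a gene was called where its p, adjusted by Benjamini-Hochberg over all genes tested, was under 0.05. The functions were tested on simulated data. Alternatives were DESeq2 1.42.0, its size factors in edgeR, no filter, a filter of 10 counts, a single fit of all 5 groups, a replicate block and leaving out each library. All 10 receptors are named. From each other list and comparison up to 2 called genes in each direction are named, taken by smallest p where the libraries of the groups were fully apart. The receptors, lists and tests were chosen with earlier results of these data known. Promoter and microRNA sequences are from RefSeq (GRCr8), and their motifs were searched on both strands. Target sites of the microRNAs in these transcripts were not analysed here.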

Additional observations from a re-analysis of the deposited data

How the results depend on the processing

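In all, 42 fold changes of receptors had 427 values under alternative settings, of which 384 kept their direction and their side of the threshold, 3 lost the call, 10 gained it and 30 changed sign. The number of receptors called was 2 with DESeq2 for miR-145 against miR-ctl in OLs, and 1 (S1pr2) for the inhibitor in OPCs when all 5 groups were fitted together. With a replicate block it was 4 (Gpr17, Gpr37, S1pr1 and Adgrg1) for miR-145 against miR-ctl, 1 (Gpr37) for both mimics against miR-ctl and 1 (S1pr1) for both mimics against miR-145, and the block changed no other call of a receptor. Over all genes the block called 2272, 132 and 184 in these comparisons, where the fit without it called 0. The labels do not say that a number marks a shared culture, and deviations of same-numbered libraries from their group means correlated at 0.404, 0.468, 0.631, -0.152 and 0.0668 in the 5 comparisons, with 2 pairs each. A crossed pairing for the OPC comparison, added after seeing the data, called 5536 genes, 2 of them receptors, against 3963 and 2 with the block. DESeq2 called 649, 106 and 9 genes in the comparisons among OL groups, and all 5 groups together called 32 genes for miR-145 against miR-ctl and 2553 for the inhibitor, beside 4348. With each library left out, 2348 to 7133 genes were called for the inhibitor and 4780 to 10306 between the stages, beside 9042. For miR-145 against miR-ctl, log2FC ranges with each library left out that changed sign were -0.18 to 0.0287 for S1pr2, -0.70 to 0.29 for S1pr3, -0.13 to 0.92 for S1pr5 and -0.56 to 0.67 for Lpar1. For both mimics against miR-ctl they were -0.0189 to 1.24 for S1pr5 and -0.075 to 1.05 for Lpar1. For both mimics against miR-145 they were -0.0885 to 0.91 for Gpr37, -1.02 to 0.0305 for S1pr1, -0.79 to 0.21 for S1pr3, -0.47 to 0.87 for S1pr5, -0.10 to 0.96 for Lpar1 and -0.17 to 0.0535 for Adgrg1. For the inhibitor they were -0.0675 to 0.46 for Gpr17, -0.15 to 0.17 for S1pr3, -0.24 to 0.15 for S1pr5 and -0.16 to 0.15 for Chrm1. Also for the inhibitor, S1pr3 gave -0.0029 with a filter of 10 counts and Chrm1 gave 0.012 when all 5 groups were fitted together. The cause of these changes was not tested. A left-out library leaves a group with 1 sample, which is assumed to vary like the other group. Depth limits S1pr3, S1pr5 and Chrm1 in OPCs and Chrm1 in OLs, and 2 libraries a group limit the rest.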
